A study of Mus musculus with 6 samples.

Results

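The class III PI3 kinase complexes were examined at the level of their mRNAs, through 8 genes taken by symbol from a table of 26898 genes. These were Pik3c3, Pik3r4, Becn1, Atg14, Uvrag, Nrbf2, Rubcn and Ambra1. Each symbol matched 1 gene, and all 8 passed the filter on low expression. The samples were RNA sequencing libraries from passage 3 primary fibroblasts (MEFs), the connective tissue cells grown directly from mid-gestation C57BL/6 mouse embryos. In the WT group (WT 4, 5 and 8) both Kansl1 alleles were flanked by recombination sites (Kansl1 fl/fl). The KO group (KO 3, 7 and 10) had the same alleles plus CAG-cre, a broadly expressed Cre recombinase that tamoxifen switches on. All 6 samples, WT included, were given 1 μM tamoxifen for 48 h. Cre-positive cells with intact Kansl1 were not analysed here, so the presence of Cre and the loss of Kansl1 cannot be told apart.

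The catalytic subunit Vps34, encoded by Pik3c3, phosphorylates the membrane lipid phosphatidylinositol and so makes PI3P, a mark that recruits other proteins to autophagosomes and endosomes. Vps34 works in complexes that share the kinase-like scaffold Vps15 (Pik3r4) and Beclin 1 (Becn1). Complex I also holds Atg14, which directs it to forming autophagosomes, while complex II holds Uvrag in place of Atg14 and acts mainly on endosomes. Nrbf2 is an accessory subunit of complex I, Rubcn (Rubicon) restrains complex II, and Ambra1 binds Beclin 1 and promotes autophagy.

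The targeted gene was checked first. Kansl1, whose protein belongs to the NSL complex that acetylates histones, was at 28.5, 26.7 and 24.4 TPM for WT 4, 5 and 8, against 13.7, 15.8 and 14.4 TPM for KO 3, 7 and 10. TPM is a read count divided by gene length and scaled to a fixed total per sample. The KO mean was thus 55.1% of the WT mean, with all exons counted together. On the log2(TPM + 1) scale the log2 fold change was -0.82 (limma adjusted p-value 0.000859). Whole reads recovered from the TPM values came to between 17655495 and 27718259 per sample over all genes, with KO 3 the shallowest and KO 7 the deepest. The short RNA Gm23935 held 15.5% to 25.6% of all TPM, most in KO 3 and WT 8. All 10 fibroblast markers reached 1 TPM in every sample. The summed level of 6 macrophage markers was 28.0 to 31.7 TPM in WT and 64.0 to 133 TPM in KO samples, with Ptprc and Cx3cr1 under 1 TPM throughout and 1 marker called higher. The sums of 4 epithelial markers (40.4 to 45.7 TPM in WT, 49.2 to 66.3 TPM in KO) and of 4 endothelial markers (1.10 to 1.87 TPM in WT, 2.31 to 3.10 TPM in KO) were also apart, with 0 markers called by limma and Epcam, Cdh1, Pecam1, Cdh5 and Tek under 1 TPM in every sample. Single genes had the highest level in each set, Lyz2 at 20.6 to 111 TPM, Krt18 at 38.6 to 63.8 TPM and Kdr at 0.745 to 2.1 TPM. The part of macrophage, epithelial and endothelial cells in the results was not tested. In these bulk samples, more cells of a type and more RNA per cell cannot be told apart.

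Of the 8 genes, 3 were called lower in KO MEFs (Pik3c3, Pik3r4 and Atg14) and 0 were called higher. This is 37.5% called lower, where 9.03% of the 14799 tested genes were called lower and 1.64% higher, 10.7% in either direction. A call required a Benjamini-Hochberg adjusted p-value under 0.005 by limma over all tested genes together with a log2 difference between the groups beyond 0.5 in size. At an unadjusted p-value under 0.05, limma had 0 members higher on TPM as deposited, 1 after median-of-ratios scaling and 1 with the 2 most abundant RNAs removed, and voom on the recovered reads had 2. None of these was called. Of all tested genes, 12.2%, 25.5%, 17.6% and 26.2% were higher at that threshold in these fits, in the same order. The median log2 fold change was -0.23 over the 8 genes and -0.07 over all tested genes. The WT and KO ranges did not overlap for 4 of the 8 genes, where 43.2% of tested genes had ranges that did not overlap. For all 4 every KO sample was below every WT sample, as for 29.9% of tested genes. All 4 core genes of complex I were in this group, and 3 of them were called lower. With Uvrag in place of Atg14, the core of complex II held 2 called genes.

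**Figure D1:**
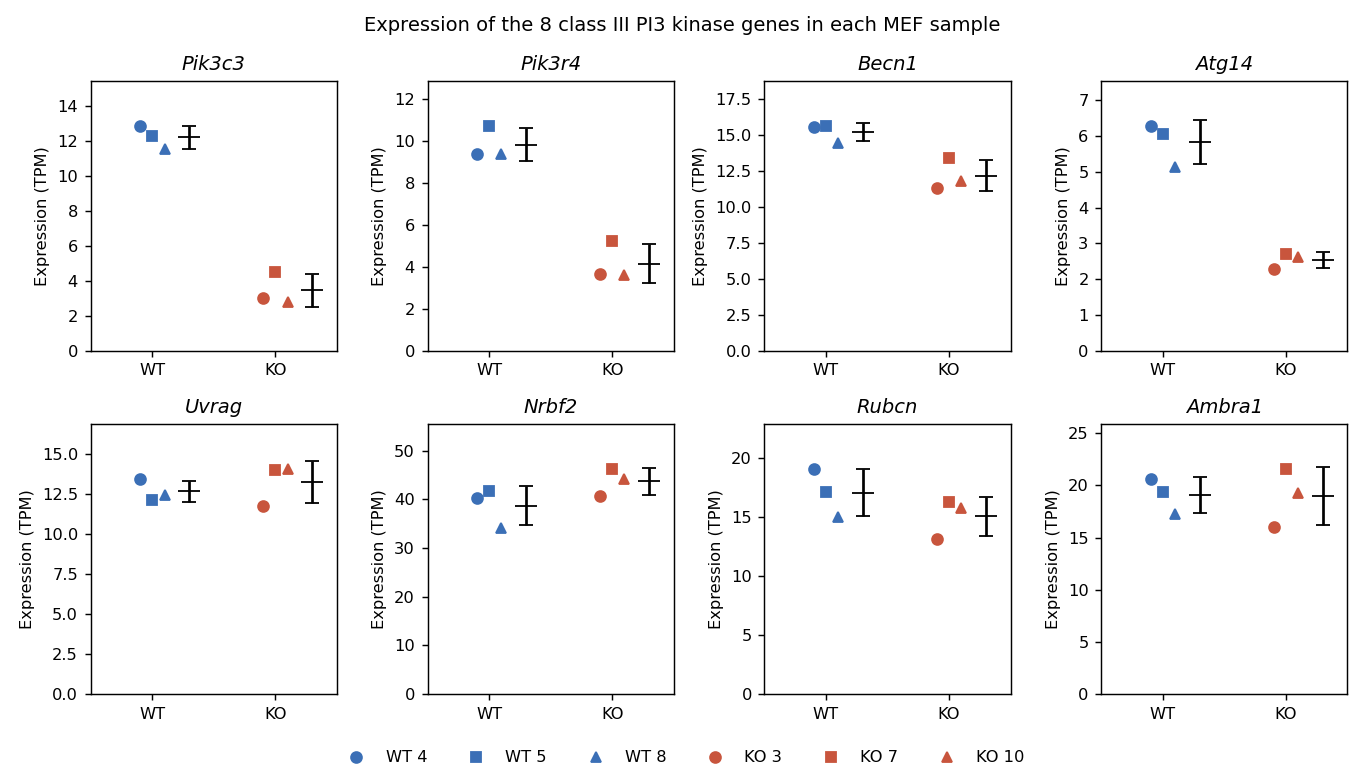
Expression in TPM (vertical axes, each starting at 0) of the 8 genes in each WT (blue) and KO (red) sample, with the mean and SD of 3 samples beside the points. All KO points lie below all WT points for Pik3c3, Pik3r4, Becn1 and Atg14, and the ranges overlap for the other genes.

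Pik3c3 (ENSMUSG00000033628.15, chromosome 18 from 30272747 to 30348126, plus strand, mm10) showed the largest difference of the 8 genes. WT 4, 5 and 8 had 12.8, 12.3 and 11.5 TPM. KO 3, 7 and 10 had 3.02, 4.51 and 2.81 TPM. The highest KO sample was therefore well under the lowest WT sample, and the KO mean was 28.2% of the WT mean. On the log2(TPM + 1) scale limma gave a log2 fold change of -1.59 (SE 0.16, 95% interval -1.94 to -1.24, adjusted p-value 0.000275). Only 0.493% of the tested genes had a more negative log2 fold change. The recovered reads were 465 to 488 in WT samples and 98, 195 and 112 in KO 3, 7 and 10.

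Pik3r4 (ENSMUSG00000032571.14, on the plus strand of chromosome 9 from 105642978 to 105687657), the gene of the scaffold that holds Vps34 in an active state, also fell. It was at 9.38, 10.7 and 9.37 TPM for WT 4, 5 and 8, against 3.63, 5.20 and 3.62 TPM for KO 3, 7 and 10. As for Pik3c3, the groups were apart and KO 7 was the highest KO sample. The KO mean was 42.3% of the WT mean, and limma gave a log2 fold change of -1.08 (SE 0.15, 95% interval -1.42 to -0.74, adjusted p-value 0.00103). Between 255 and 906 reads lay behind each value. Without KO 3 the log2 fold change was -1.01 and the limma adjusted p-value of 0.00502 was just past the threshold.

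Becn1 (ENSMUSG00000035086.13, chromosome 11 from 101285952 to 101302286, minus strand) was not called. Its level was 15.5, 15.6 and 14.5 TPM for WT 4, 5 and 8, against 11.3, 13.4 and 11.8 TPM for KO 3, 7 and 10. The ranges did not overlap, but the difference was small, with a KO mean at 80.1% of the WT mean. By limma the log2 fold change was -0.30 (SE 0.11, 95% interval -0.55 to -0.05, adjusted p-value 0.0724). Becn1 shares 3104 bp of exon, 43.9% of its merged exon length, with the opposite-strand gene Cntd1. The library kit named in the methods does not mark strand, so reads in the shared part cannot be assigned to either gene with certainty. Cntd1 was listed at 0 to 0.251 TPM.

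Atg14 (ENSMUSG00000037526.7, on the minus strand of chromosome 14 from 47540893 to 47570649), which defines complex I, was the gene with the lowest WT level among the 8. It was at 6.28, 6.07 and 5.12 TPM for WT 4, 5 and 8, against 2.29, 2.70 and 2.62 TPM for KO 3, 7 and 10. The KO values lay close together, with a spread of 8.52% of their mean (SD over mean), against 26.9% for Pik3c3 and 22.0% for Pik3r4. The KO mean of Atg14 was 43.5% of the WT mean in TPM. Fold changes on log2(TPM + 1) understate the change of low genes. On that scale Atg14 had a log2 fold change of -0.95 (SE 0.14, 95% interval -1.26 to -0.63, limma adjusted p-value 0.00138). The reads behind it were few, 210 to 230 in WT samples and 72, 113 and 101 in KO 3, 7 and 10. The call was lost without WT 5 (log2 fold change -0.92, limma adjusted p-value 0.00691) and without KO 3 (-0.90, 0.00515). The antisense gene Gm49004 overlaps 5.53% of its exon length and was listed at 0 to 0.416 TPM.

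Uvrag (ENSMUSG00000035354.9, chromosome 7 from 98885021 to 99141141, minus strand), the alternative subunit that defines complex II, was not called. Its level was 13.4, 12.1 and 12.5 TPM for WT 4, 5 and 8, against 11.7, 14.0 and 14.1 TPM for KO 3, 7 and 10. KO 3 lay below every WT sample while KO 7 and KO 10 lay above them, so the groups overlapped. Its log2 fold change came to 0.06 (SE 0.12, limma adjusted p-value 0.747). Its 95% interval of -0.20 to 0.32 does not reach the fold threshold on either side. The opposite-strand gene Gm45187, at 0.0788 to 0.429 TPM, overlaps 17.6% of the exon length of Uvrag.

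The regulators were not called in either direction. Nrbf2 (ENSMUSG00000075000.11, chromosome 10 from 67266689 to 67285305, minus strand) had the highest TPM of the 8 genes. It was at 40.3, 41.8 and 34.2 TPM for WT 4, 5 and 8, against 40.8, 46.2 and 44.2 TPM for KO 3, 7 and 10. Its groups overlapped through KO 3, and its log2 fold change was 0.17 (95% interval -0.07 to 0.42, limma adjusted p-value 0.273). Rubcn (ENSMUSG00000035629.19, chromosome 16 from 32821703 to 32877766, minus strand) was at 19.0, 17.1 and 15.0 TPM for WT 4, 5 and 8, against 13.1, 16.3 and 15.7 TPM for KO 3, 7 and 10. These ranges also overlapped, with a log2 fold change of -0.17 (95% interval -0.46 to 0.12, limma adjusted p-value 0.361). Of the exon length of Rubcn, 2.29% is shared with the opposite-strand gene Fyttd1, which was at 46.7 to 58.4 TPM. Ambra1 (ENSMUSG00000040506.16, chromosome 2 from 91730134 to 91918849, plus strand) was at 20.6, 19.3 and 17.3 TPM for WT 4, 5 and 8, against 16.0, 21.6 and 19.3 TPM for KO 3, 7 and 10. Its KO samples spanned the whole WT range, and its log2 fold change of -0.016 (95% interval -0.31 to 0.28, limma adjusted p-value 0.944) turned positive under median-of-ratios scaling and voom (0.084 and 0.096).

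**Figure D2:**
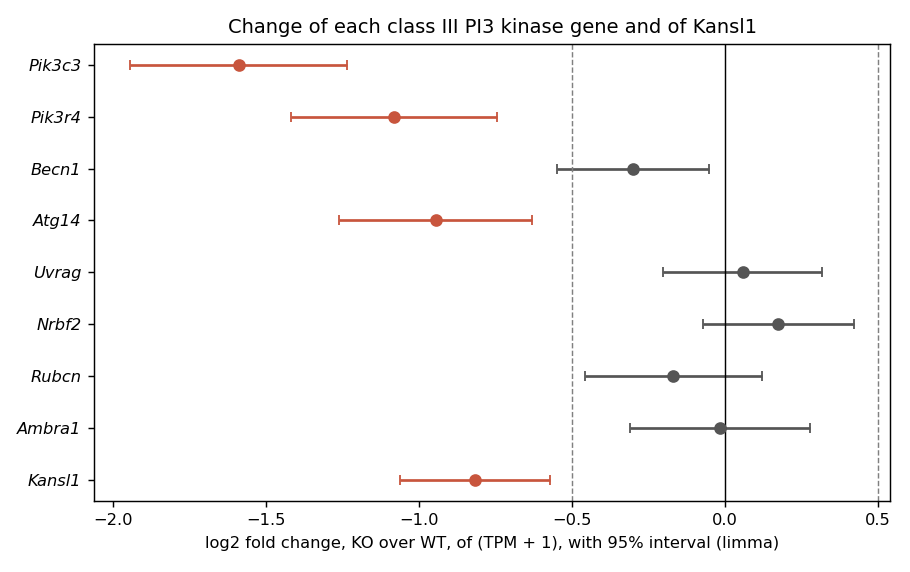
Log2 fold change of KO over WT on the log2(TPM + 1) scale (horizontal axis) for the 8 genes and Kansl1, with 95% intervals from limma, red where called lower, and dashed lines at -0.5 and 0.5. The intervals of Pik3c3, Pik3r4 and Atg14 lie wholly below -0.5, while that of Becn1 crosses it and those of Uvrag, Nrbf2, Rubcn and Ambra1 include 0.

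The samples of a group differed in a shared way across these genes. KO 7 was the highest KO sample for 7 of the 8 genes, the exception being Uvrag, and KO 3 was the lowest for 6. Among the WT samples, WT 8 was the lowest for 7. KO 3 and WT 8 were also the samples with the largest share of TPM in Gm23935, at 25.6% and 24.3%. After median-of-ratios scaling, a scaling to the typical gene, these counts were 3 for KO 7, 2 for KO 3 and 4 for WT 8. On this scale KO 7 was still the highest KO sample for Pik3c3 (4.29 against 3.44 and 2.84 scaled TPM in KO 3 and 10) and for Pik3r4 (4.95 against 4.14 and 3.66). The called genes were the same 3 after this scaling. Uvrag and Nrbf2 then no longer overlapped between the groups, which left 6 of the 8 genes apart, where 57.1% of tested genes were apart on this scale. Nrbf2 had a log2 fold change of 0.28 on the scaled values (limma adjusted p-value 0.00677), short of both thresholds. For Uvrag these values were 0.15 and 0.108.

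The order of the levels in TPM was compared within each group. TPM divides reads by the merged length of all annotated exons, from 1860 bp for Nrbf2 to 9660 bp for Pik3r4. The order of different genes therefore depends on the annotated lengths as well as on the reads. In WT MEFs the order was Nrbf2, Ambra1, Rubcn, Becn1, Uvrag, Pik3c3, Pik3r4 and Atg14. Neighbours in this order whose ranges over 3 samples overlapped were Ambra1 and Rubcn, Rubcn and Becn1, and Uvrag and Pik3c3. Pik3c3 was thus about level with Uvrag, at 12.2 ± 0.664 against 12.7 ± 0.673 TPM (SD, n = 3). In KO MEFs Nrbf2, Ambra1 and Rubcn kept their places, followed by Uvrag, Becn1, Pik3r4, Pik3c3 and Atg14. Ambra1, Rubcn, Uvrag and Becn1 each overlapped their neighbours within that run. The 3 called genes formed the bottom of the KO order, apart from Becn1 by more than the sample ranges, at 4.15 ± 0.912 TPM for Pik3r4, 3.44 ± 0.926 TPM for Pik3c3 and 2.54 ± 0.216 TPM for Atg14 (SD, n = 3). Pik3r4 and Pik3c3 overlapped in the KO samples, while the TPM of Pik3c3 was above that of Pik3r4 in every WT sample.

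To compare the subunits with each other, ratios of TPM were formed within each sample, which cancels any scaling of the sample as a whole. Atg14 to Uvrag, the pair that separates complexes I and II, stood at 0.468, 0.50 and 0.411 in WT 4, 5 and 8. The same ratio was 0.195, 0.193 and 0.186 in KO 3, 7 and 10. The KO ratios were nearly equal and all far below the WT ratios, a difference in log2 ratio of -1.26, from -1.13 ± 0.14 in WT to -2.39 ± 0.036 in KO samples (SD, n = 3, exact permutation test over samples, two-sided, p = 0.1). Pik3c3 to Becn1 was 0.827, 0.784 and 0.797 in WT 4, 5 and 8 and 0.266, 0.336 and 0.238 in KO 3, 7 and 10. These groups were apart by a log2 difference of -1.53 (exact permutation test, two-sided, p = 0.1). Pik3c3 to Pik3r4 was 1.37, 1.15 and 1.23 in WT 4, 5 and 8 and 0.831, 0.866 and 0.776 in KO 3, 7 and 10. These groups too were apart, by a log2 difference of -0.60 (exact permutation test, two-sided, p = 0.1). Whether this ratio lies above or below 1 depends on the merged exon lengths, 4466 bp for Pik3c3 and 9660 bp for Pik3r4. Recovered reads in WT 4, 5 and 8 were 465, 480 and 488 for Pik3c3 and 734, 906 and 858 for Pik3r4. Adjusted over the 3 ratios each p-value was 0.1, which is also the smallest that 3 against 3 samples allow. Becn1 and Uvrag carry the exon overlaps named above, which enter their ratios.

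**Figure D3:**
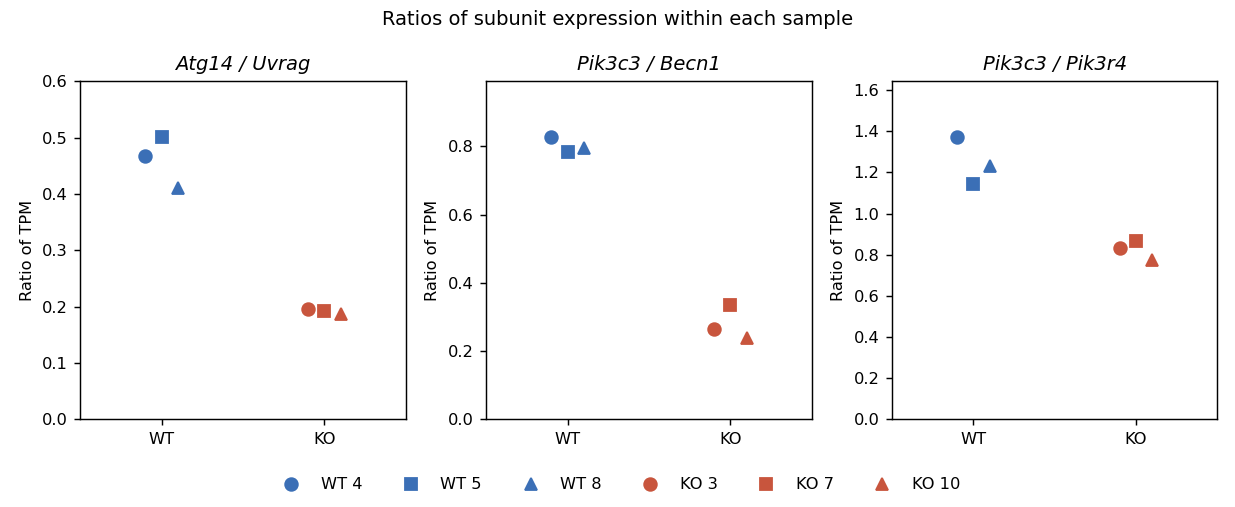
Ratio of TPM between pairs of subunit genes (vertical axes, each starting at 0) in each WT (blue) and KO (red) sample. The KO ratios lie below the WT ratios in all panels, with Atg14 to Uvrag between 0.186 and 0.195 in KO against 0.411 to 0.50 in WT samples.

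The DNA before the start sites of these genes was also set side by side. A link between these sequences and the changes was not tested. RefSeq (GRCm38.p6) gave promoter windows, from 250 bases before to 50 after the start, for 6 of the 8 genes (all but Pik3c3 and Becn1). The called gene Pik3r4 and the uncalled genes Uvrag and Nrbf2 are shown as examples of both outcomes, 5′ to 3′ on the strand of the gene and trimmed of annotated exon. The positions are chr9:105642745-105642977 (plus) for Pik3r4, chr7:99141145-99141394 (minus) for Uvrag and chr10:67285306-67285531 (minus) for Nrbf2. Capitals mark letters that match a searched motif on either strand.
Pik3r4: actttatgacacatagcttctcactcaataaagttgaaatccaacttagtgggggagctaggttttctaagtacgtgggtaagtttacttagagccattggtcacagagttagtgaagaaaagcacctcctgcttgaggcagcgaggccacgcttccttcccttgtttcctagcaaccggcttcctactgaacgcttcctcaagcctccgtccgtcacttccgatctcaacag
Uvrag: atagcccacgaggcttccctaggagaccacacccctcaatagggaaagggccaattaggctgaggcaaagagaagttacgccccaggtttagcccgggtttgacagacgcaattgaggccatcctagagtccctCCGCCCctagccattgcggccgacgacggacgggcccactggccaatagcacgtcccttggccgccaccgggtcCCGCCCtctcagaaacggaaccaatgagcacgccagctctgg
Nrbf2: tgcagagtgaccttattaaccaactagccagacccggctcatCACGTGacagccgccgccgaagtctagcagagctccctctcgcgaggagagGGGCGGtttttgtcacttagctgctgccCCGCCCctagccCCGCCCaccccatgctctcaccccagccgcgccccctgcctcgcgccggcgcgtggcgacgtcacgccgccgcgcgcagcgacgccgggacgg
Motifs were searched on both strands, and no match overlapped another in these windows. The E-box, spelled CACGTG, occurs in 7.15% of the 32851 RefSeq windows, and the GC box, spelled GGGCGG, occurs in 35.7%. The TATA box, spelled TATAAA, occurs in 13.6% and the ETS core, spelled CCGGAAG, in 8.86%. The YY1 core, spelled AAGATGG, occurs in 6.34% and the NRF1 core, spelled TGCGCA, in 7.76%. The Pik3r4 and Ambra1 windows held none of the 6 motifs. The Atg14 window held 2 GC boxes, an NRF1 core and an E-box whose first base lies 1 base before the start. Nrbf2 held an E-box and 3 GC boxes, and Uvrag held 2 GC boxes. Rubcn has 2 windows, of which 1 held an E-box and an ETS core and the other 2 GC boxes. GC content was 50.7% for Pik3r4, 57.7% for Atg14, 61.7% for Uvrag, 71.0% for Nrbf2, 44.7% for Ambra1 and 51.3% and 71.0% for the Rubcn windows, against a median of 52.7% over all windows. The RefSeq start of Atg14 lies inside the gene as GENCODE M21 annotates it, and all 4 of its matches fall in an annotated exon, so its window is not printed.

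The genes around PI3P were then counted in 5 lists. Of 63 listed genes 58 were tested, of which 7 were called lower and 2 higher, with a median log2 fold change of -0.09 against -0.07 over all tested genes. Over all tested genes 9.03% were called lower and 1.64% higher. At an unadjusted p-value under 0.05, limma had 20 of the 58 lower and 6 higher on TPM as deposited, 19 and 15 after median-of-ratios scaling, 21 and 11 with the 2 most abundant RNAs removed, and 21 and 17 with voom. In the same order, 27.2%, 26.6%, 30.9% and 27.3% of all tested genes were lower at that threshold, and 12.2%, 25.5%, 17.6% and 26.2% were higher.

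Of the 5 lists, that of PI3P turnover had the most genes called lower, with 3 of 11, no gene called higher and a median of -0.26. Fig4, a phosphatase that forms a complex with the PI3P 5-kinase PIKfyve, was at 19.3, 19.4 and 16.9 TPM for WT 4, 5 and 8, against 7.54, 8.96 and 7.78 TPM for KO 3, 7 and 10 (log2 fold change -1.10, limma adjusted p-value 0.000356). The myotubularin phosphatase genes Mtmr1 and Mtmr14 had log2 fold changes of -1.07 and -0.95 (limma adjusted p-values 0.00064 and 0.000515), from 7.96 ± 0.685 to 3.28 ± 0.344 TPM and from 21.7 ± 2.01 to 10.8 ± 0.663 TPM (SD, n = 3). The WT and KO ranges of all 3 genes were apart, as for 43.2% of tested genes, but these 3 were picked because they were called. The other 8 genes of the list were not called.

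Among 16 tested genes of proteins that bind PI3P, 1 was called lower, and the median was -0.05. This was Zfyve26, which encodes a FYVE domain protein, at 4.63, 4.49 and 4.26 TPM for WT 4, 5 and 8, against 1.44, 1.49 and 1.54 TPM for KO 3, 7 and 10 (log2 fold change -1.13, limma adjusted p-value 0.000664). The endosomal sorting nexin Snx3, the most abundant of the list, was at 239 ± 8.67 TPM in WT and 261 ± 15.7 TPM in KO samples (SD, n = 3) and was not called.

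Among 13 tested partners of Beclin 1 and Vps34, 2 were called lower and 1 higher, with a median of -0.05. Dapk1, a kinase that phosphorylates Beclin 1, rose from 3.92, 5.28 and 4.14 TPM for WT 4, 5 and 8 to 9.76, 11.4 and 10.2 TPM for KO 3, 7 and 10 (log2 fold change 1.08, limma adjusted p-value 0.000698). Its groups did not overlap, as for 43.2% of tested genes. Klhl20, an adaptor of a ubiquitin ligase, and Traf6, a ubiquitin ligase that modifies Beclin 1, had log2 fold changes of -0.87 and -0.75 (limma adjusted p-values 0.0013 and 0.00205). The call of Klhl20 was lost without WT 5 (-0.84, limma adjusted p-value 0.00672), and that of Traf6 was lost in 5 of the 6 fits that left out 1 sample, all but the fit without KO 7, with limma adjusted p-values of 0.0046 to 0.0116 over the 6.

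Of 9 upstream kinase genes and their partners, 1 was called lower and none higher, with a median of -0.27. Atg13, a subunit of the ULK1 kinase complex that acts before the class III kinase, was at 22.3, 23.7 and 21.1 TPM for WT 4, 5 and 8, against 12.2, 13.2 and 13.9 TPM for KO 3, 7 and 10. Its log2 fold change of -0.73 (limma adjusted p-value 0.00126) lost the call without WT 5 (-0.69, 0.00728). Ulk1, the kinase of the same complex, lay in the other direction and was not called, at 18.5 ± 1.11 TPM in WT and 26.7 ± 2.34 TPM in KO samples (SD, n = 3, log2 fold change 0.50, limma adjusted p-value 0.00821), and it was picked after its values were seen. With an adjusted p-value threshold of 0.05 in place of 0.005, Ulk1 would be called higher and Mtor, also picked after its values were seen, lower (log2 fold change -0.52, limma adjusted p-value 0.0125). Prkaa1, a catalytic subunit of AMP-activated kinase, was the most abundant of this list, at 51.9 ± 9.01 TPM in WT and 47.5 ± 1.52 TPM in KO samples (SD, n = 3), and was not called.

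The PI3 kinases of classes I and II, which make other lipids of this family or act outside these complexes, were counted as the last list. Of 9 tested genes 1 was called higher and none lower, where 9.03% of all tested genes were called lower, and the median was 0.20. Pik3r3, a regulatory subunit of class I, rose from 8.57, 8.82 and 7.70 TPM for WT 4, 5 and 8 to 14.6, 18.1 and 16.8 TPM for KO 3, 7 and 10 (log2 fold change 0.90, limma adjusted p-value 0.000895). Pik3r2, another regulatory subunit and the most abundant of the list, was at 41.0 ± 3.92 TPM in WT and 49.2 ± 4.74 TPM in KO samples (SD, n = 3) and was not called. The difference between the lists was not tested.

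**Figure D4:**
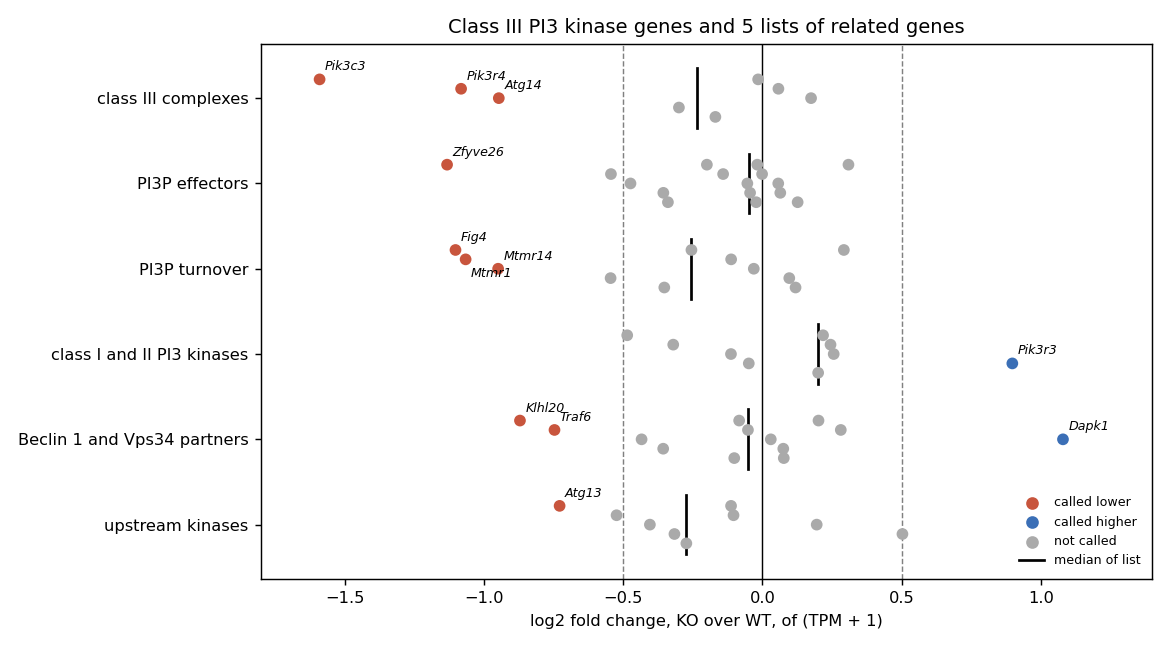
Log2 fold change of KO over WT on the log2(TPM + 1) scale (horizontal axis) for the 8 class III genes and 5 lists of related genes, 1 point per tested gene, red where called lower, blue where called higher, with a black line at each list's median. Pik3c3 lies furthest to the left at -1.59, and the calls are spread over all 5 lists, with 7 lower and 2 higher among 58 genes.

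Genes with patterns most like those of the called members were sought by the root mean square difference of log2(TPM + 1), relative to the WT mean, over the 6 samples. For Pik3c3 these were Zfp820, Evc and Ppih, at 0.063, 0.077 and 0.080. For Pik3r4 they were Nelfe, Itgb3bp and Haspin, at 0.051, 0.056 and 0.067. For Atg14 they were Gm8206, Pms1 and Pcnt, at 0.035, 0.036 and 0.038. Adding 1 to TPM compresses low values, so likeness on this scale need not mean a like fold change in TPM. Itgb3bp went from a WT mean of 1.65 to a KO mean of 0.212 TPM, against 9.81 to 4.15 TPM for Pik3r4. Gm8206 and Pms1, at KO means of 0.537 and 0.699 TPM, were not called (limma adjusted p-values 0.00585 and 0.00618). Among the 3 called members, Pik3r4 and Atg14 were the most alike, at 0.17, while Pik3c3 differed from Pik3r4 by 0.37 and from Atg14 by 0.48.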

How the data were processed

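Expression was measured by RNA sequencing in 3 WT and 3 KO MEF samples, grouped by their titles. Per the methods, the authors aligned reads to mm10 with STAR, and the submitters' processing notes also list Bowtie 0.12.2. The counting program and annotation were not given in the sources used here. The authors deposited TPM values, read counts per gene length scaled to 1 total in each sample. Their own fold change and adjusted p-value columns were not used.

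Tested genes (14799 of 26898) had a mean of 1 TPM or more in either group. The groups were compared on log2(TPM + 1) by limma (version 3.58.1, R 4.3.3), using a trended variance and no covariate, and p-values were adjusted over all tested genes. Fold changes on this scale understate the change of low genes. The fit was tested on simulated data. TPM multiplied by the GENCODE M21 merged exon length gave whole multiples of 1 step per sample for 100% of the low values (tolerance 0.05), and these recovered reads were used for depth and for voom. They are reads assigned to genes, not library sizes. Ratios within samples were compared by an exact permutation test (scipy 1.17.1). The methods give n = 3 per genotype but do not tie samples to litters, so p-values measure the spread between these samples.

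The members, gene lists, filter and rules were chosen with earlier results of these data known. Named genes are the 8 members, Kansl1, genes whose exons overlap a member's, the called genes of each list (at most 4, and the most abundant where fewer than 2 were called) and the 3 genes most like each called member. Ulk1 and Mtor are named outside this rule. Alternatives were another pseudocount, filter, scaling, trend, test and threshold, and leaving out each sample.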

Additional observations from a re-analysis of the deposited data

How the results depend on the processing

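Pik3c3 was called lower under all 13 alternatives in which it was tested (log2 fold change -1.83 to -1.49, limma adjusted p-value 5.98e-05 to 0.00429). Pik3r4 and Atg14 were lower in all 13 of theirs (-1.24 to -0.99 and -1.17 to -0.86), with limma adjusted p-values of 0.000133 to 0.00858 and 0.000153 to 0.0105. Members called lower numbered 1 instead of 3 with all genes tested, where Pik3r4 (0.00858) and Atg14 (0.0105) missed the threshold. They numbered 0 with a mean of at least 10 TPM over all 6 samples, a filter that takes the mean differently from the main one. This filter removed the 3 called genes. Pik3r4 and Atg14 had WT means already under 10 TPM (9.81 and 5.82), while Pik3c3 (12.2) was removed through its low KO values. Of the 5 left, 1 had an unadjusted limma p-value under 0.05. Leaving out 1 sample gave 1 to 3 members called lower, with 1 without KO 3 and 2 without WT 5. Ambra1 turned positive with median-of-ratios scaling (0.084), removal of the 2 most abundant RNAs (0.0025) and voom (0.096), and lay between -0.11 and 0.094 without 1 sample. Prkaa1 lay between -0.21 and 0.020 without 1 sample. Becn1, at -0.37 to -0.20, had its lowest adjusted p-value of 0.00985 after removal of the 2 most abundant RNAs, short of the threshold. The log2 difference of Atg14 to Uvrag was -1.0 with 1 added to each TPM, by the construction of that scale.

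Against 1579 called genes in all, testing all genes gave 341, voom 2441 and an adjusted p-value under 0.05 gave 3147. Without 1 sample there were 758 to 1081, with 758 without WT 5, 962 without WT 8, 777 without KO 3, 1022 without KO 7 and 910 without KO 10. The share called lower was 84.7%, 75.3% with median-of-ratios scaling and 73.7% with voom. The related lists had 2 lower and 0 higher genes with all genes tested (21 and 8 at an unadjusted limma p-value under 0.05), and 4 to 7 lower without 1 sample, 4 being without WT 5. With all genes tested Fig4 and Mtmr14 kept the call, while Zfyve26, Mtmr1, Klhl20, Traf6, Atg13, Dapk1 and Pik3r3 lost it. Instead of 7 lower and 2 higher genes they had 7 and 3 with median-of-ratios scaling and voom, 9 and 3 with the 2 most abundant RNAs removed, and 10 and 3 with an adjusted p-value under 0.05. The cause was not tested. For single genes, 261 results kept direction and call, 19 lost the call and 6 changed sign. No paired analysis was made, since no replicate number occurs in both groups and the methods do not tie samples to litters. Among the 8 genes, Atg14 had the fewest recovered reads, at 72 in KO 3.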
